A study of Homo sapiens with 9 samples.

Results

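The 7 genes described here are 3 Tribbles pseudokinase genes (TRIB1, TRIB2 and TRIB3), 2 genes of a ubiquitin ligase that degrades ETV1 family proteins (RFWD2, the older symbol of COP1, and DET1), and 2 RAS-like GTPase genes (RASL11A and RASL11B). They were taken by symbol from a table of 23610 genes, and all 7 were found. Each had a mean of at least 1 FPKM (fragments scaled by transcript length and library size), the minimum for testing, which 11348 genes reached. The genes were chosen by symbol and function with measured values of these data in view, among them the lower FPKM of TRIB1 and RASL11A with ETV1 sgRNA. Their values in the libraries with ETV1 sgRNA are therefore given as a description, with no test.

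The 9 libraries are polyA RNA-seq of GIST-T1, an established human line of gastrointestinal stromal tumour (GIST) cells. An sgRNA against ETV1, an ETS family transcription factor of GIST and of interstitial cells of Cajal, was present in 3 of them. An sgRNA against HAND1, a basic helix-loop-helix factor of mesoderm, was present in 3, and an sgRNA against Luciferase, a reporter with no counterpart in human cells, in the 3 controls. The labels call the agents knockdown, name no drug, time or Cas9 variant, and do not state how the 3 libraries of a group were obtained. If they share a culture, the spread behind the p-values is technical. All groups are the same cell line, so the results describe 1 tumour line. RNA was measured, not protein, and in bulk RNA fewer cells with a transcript and less of it per cell cannot be told apart.

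Each targeted transcript was lowest where its sgRNA was present. ETV1 lay between 10.9 and 12.0 FPKM with ETV1 sgRNA and between 37.4 and 42.2 FPKM in the controls. HAND1 lay between 36.5 and 40.8 FPKM with HAND1 sgRNA and between 114 and 116 FPKM in the controls. With ETV1 sgRNA HAND1 lay between 129.7 and 133.8 FPKM, above the controls with no overlap, and with HAND1 sgRNA ETV1 lay between 39.8 and 41.8 FPKM, within the range of the controls. All 7 defining markers of GIST and interstitial cells of Cajal had a mean of at least 1 FPKM over the 9 libraries, with KIT at 192 FPKM, ANO1 at 169 FPKM and CD34 at 1659 FPKM. Below a mean of 1 FPKM were 9 of 9 blood and endothelial markers, 7 of 7 neuronal and glial markers and 6 of 7 epithelial markers, the exception being CDX2 at 1.06 FPKM. The summed blood and endothelial markers were between 0.996 and 1.67 FPKM in the controls, between 1.94 and 6.16 FPKM with ETV1 sgRNA and between 0.443 and 2.89 FPKM with HAND1 sgRNA. In that list the leukocyte marker PTPRC reached at most 0.0581 FPKM and the endothelial marker PECAM1 at most 0.0799 FPKM. The part of this list in the values below was not tested. The depth of the libraries, known only relative to Luciferase sgRNA replicate 1, ranged from 0.637 to 1. Luciferase sgRNA replicate 3 stood apart: ribosomal protein genes took 12.2% of its summed FPKM, against at most 9.63% in the other libraries. Against the other controls its median log2 difference was 0.47 for the 388 tested genes whose longest transcript is below 1000 nt, and 0.0024 for 10164 longer ones. The longest annotated transcripts of the 7 genes run from 1543 nt (RASL11A) to 4391 nt (TRIB2), all above that length.

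Tribbles proteins have a kinase fold with little or no catalytic activity and work as adaptors. The pseudokinase domain holds a substrate, of which C/EBP alpha is the best known, and the C-terminal tail docks COP1, a RING-type ubiquitin ligase. COP1 also binds substrates directly. Together with DET1, DDB1 and a CUL4 scaffold it marks ETV1, ETV4, ETV5 and JUN for degradation by the proteasome. RASL11A and RASL11B are small GTPases of the RAS family that lack the C-terminal lipid anchor of RAS. RASL11A is known from the nucleolus, where it binds UBTF at ribosomal RNA genes, and RASL11B from mesendoderm formation in zebrafish embryos.

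The levels of the 7 genes in the control cells covered a wide range. RASL11A was the most abundant, at 211 ± 8.83 FPKM (SD, n = 3), above 96.9% of the genes tested. TRIB3 followed at 41.2 ± 2.09 FPKM, RFWD2 at 29.8 ± 1.92 FPKM, TRIB2 at 22.8 ± 1.38 FPKM, TRIB1 at 20.2 ± 1.49 FPKM and RASL11B at 13.9 ± 2.05 FPKM. DET1 was the lowest, at 1.95 ± 0.127 FPKM, above 8.63% of the genes tested. No 2 neighbours in this order overlapped in the control libraries, although TRIB1 (highest 21.4 FPKM) and TRIB2 (lowest 21.8 FPKM) nearly met. With HAND1 sgRNA, RASL11B at 28.1 ± 2.55 FPKM overlapped RFWD2 at 28.9 ± 0.379 FPKM. FPKM is scaled to transcript length, but the annotation and overlapping genes also enter it. This order, and the sums across genes below, are therefore approximate.

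**Figure D1:**
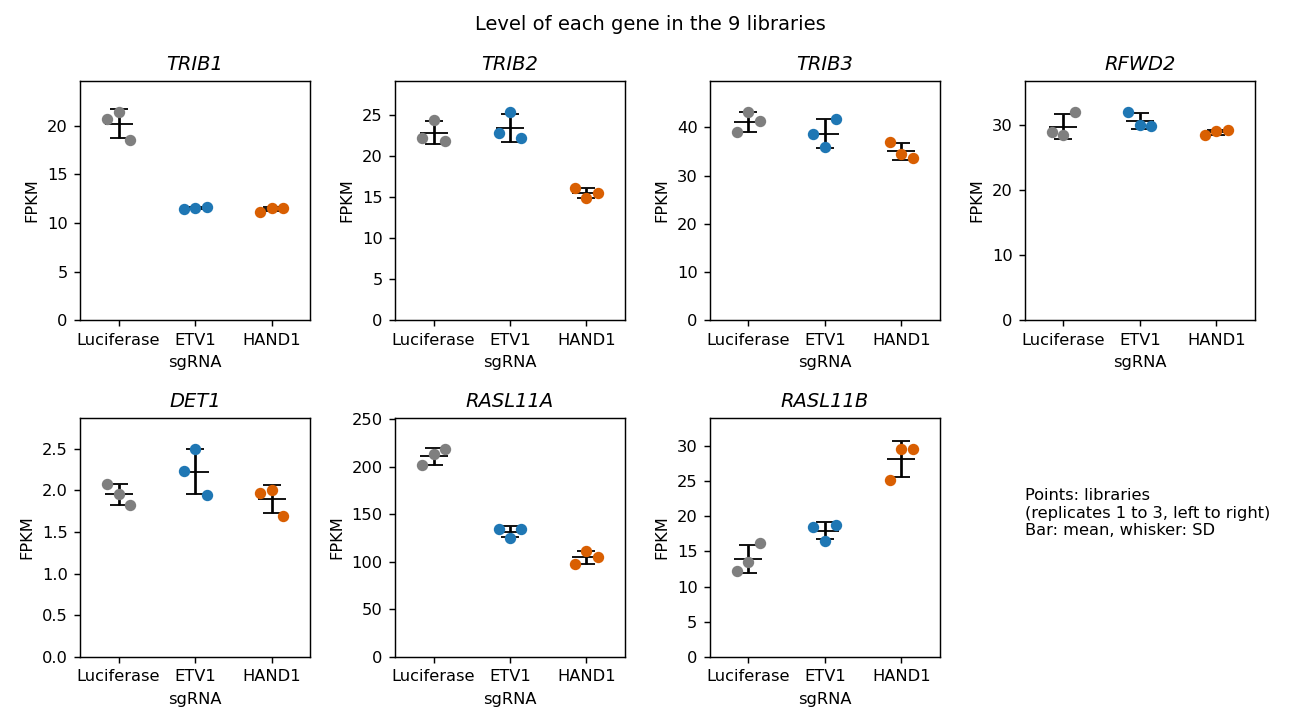
FPKM (y axes, each from 0) of the 7 genes in every library, by sgRNA (x axes). Points are libraries, bars the mean of 3 and whiskers the SD. TRIB1 lay near 11.5 FPKM in all 6 libraries with a targeting sgRNA, RASL11A was lower and RASL11B higher in both targeted groups, and RFWD2 kept overlapping ranges between each targeted group and the controls.

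With HAND1 sgRNA, 4 of the 7 genes passed the test against Luciferase sgRNA: TRIB1, TRIB2 and RASL11A fell and RASL11B rose. TRIB3, RFWD2 and DET1 did not pass. The test was limma on log2(FPKM + 1) with Benjamini-Hochberg adjustment over all genes tested, and an adjusted p under 0.05 was called. Over all 11348 genes, 6.6% were called in this comparison, 2.93% lower and 3.67% higher. The 3 HAND1 sgRNA values did not overlap the 3 control values for 5 of the 7 genes, the called 4 and TRIB3, against 25.7% of all genes. In 4 they were lower and in 1 higher, against 12.7% and 13% of all genes. The 4 calls held under all 19 alternatives, among them leaving out Luciferase sgRNA replicate 3. The comparison with ETV1 sgRNA, in which TRIB1 and RASL11A were seen to be lower before the genes were chosen, uses the same control libraries. The p-values with HAND1 sgRNA are therefore not independent of the choice, above all for TRIB1 and RASL11A, and it is not recorded whether HAND1 sgRNA values were also in view. Nothing about the 7 genes as a group is read from the count, and the values of both targeted groups are set side by side below.

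With ETV1 sgRNA the values lay apart from the controls for 3 of the 7 genes (TRIB1 and RASL11A lower, RASL11B higher), against 12.9% of all genes (6% lower, 6.88% higher), a count that the choice of the genes used. Between HAND1 sgRNA and ETV1 sgRNA they lay apart for 4 (TRIB2, RFWD2 and RASL11A lower and RASL11B higher with HAND1 sgRNA), against 22.4% of all genes (11.5% lower, 10.9% higher). TRIB1, TRIB3 and DET1 overlapped between the targeting sgRNAs.

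TRIB1 is the Tribbles gene best known for bringing C/EBP alpha to COP1. It was at 20.7, 21.4 and 18.6 FPKM in Luciferase sgRNA replicates 1, 2 and 3. With HAND1 sgRNA it was at 11.2, 11.6 and 11.6 FPKM, and with ETV1 sgRNA at 11.4, 11.6 and 11.6 FPKM. Every library with a targeting sgRNA was below every control, and the targeted groups overlapped each other almost fully. TRIB1 fell by 0.77 (log2, SE 0.064, adjusted p = 7.25e-05) with HAND1 sgRNA, to 0.566 of its control mean. The difference between ETV1 sgRNA and Luciferase sgRNA was −0.76 (SE 0.064), and that between HAND1 sgRNA and ETV1 sgRNA −0.01 (SE 0.064). The spread within the targeted groups was small, with a coefficient of variation of 1.03% with ETV1 sgRNA and 2.14% with HAND1 sgRNA, against 7.36% in the controls.

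TRIB2 is the closest relative of TRIB1 and likewise docks COP1. It was at 22.2, 24.4 and 21.8 FPKM in the controls, at 22.7, 25.3 and 22.1 FPKM with ETV1 sgRNA, and at 16.1, 14.8 and 15.5 FPKM with HAND1 sgRNA. The HAND1 sgRNA libraries were below all 6 others, while the ETV1 sgRNA and control ranges overlapped. TRIB2 fell by 0.53 (log2, SE 0.069, adjusted p = 0.00128) with HAND1 sgRNA, to 0.679 of the control mean. With ETV1 sgRNA the difference from the control was 0.03 (SE 0.069), and HAND1 sgRNA lay 0.56 below ETV1 sgRNA (difference −0.56, SE 0.069).

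TRIB3 is a stress-inducible Tribbles gene, switched on by ATF4 and CHOP when amino acids run short or unfolded protein builds up, and its protein binds AKT. It was at 39.0, 43.2 and 41.4 FPKM in the controls, at 38.6, 35.9 and 41.7 FPKM with ETV1 sgRNA and at 37.0, 34.5 and 33.6 FPKM with HAND1 sgRNA. The HAND1 sgRNA values lay below all 3 controls but overlapped those with ETV1 sgRNA. The difference from the control was −0.23 with HAND1 sgRNA (SE 0.068, 95% interval −0.38 to −0.08, adjusted p = 0.0830), which did not pass the test over all genes. It passed with library weights (adjusted p = 0.0210), an alternative that called 1312 genes in place of 749. With ETV1 sgRNA the difference was −0.09 (SE 0.068).

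Summed over the 3 genes, Tribbles transcripts were at 84.2 ± 4.13 FPKM in the controls, 73.7 ± 1.58 FPKM with ETV1 sgRNA and 62.0 ± 2.03 FPKM with HAND1 sgRNA (SD, n = 3). The ranges of the 3 groups did not overlap. TRIB1 made up 24.0 ± 1.30% of the sum in the controls, 15.7 ± 0.264% with ETV1 sgRNA and 18.5 ± 0.980% with HAND1 sgRNA. TRIB3 made up 48.9 ± 1.52%, 52.5 ± 3.02% and 56.5 ± 1.09% in the same order, so the largest part of the Tribbles RNA came from TRIB3 in each group. These sums and shares were not tested, and the fall of TRIB1 with ETV1 sgRNA enters them. The TRIB3 share ran from 49.3% to 55.3% with ETV1 sgRNA, which overlapped the controls (47.6% to 50.6%) and lay just below HAND1 sgRNA (55.4% to 57.6%).

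**Figure D2:**
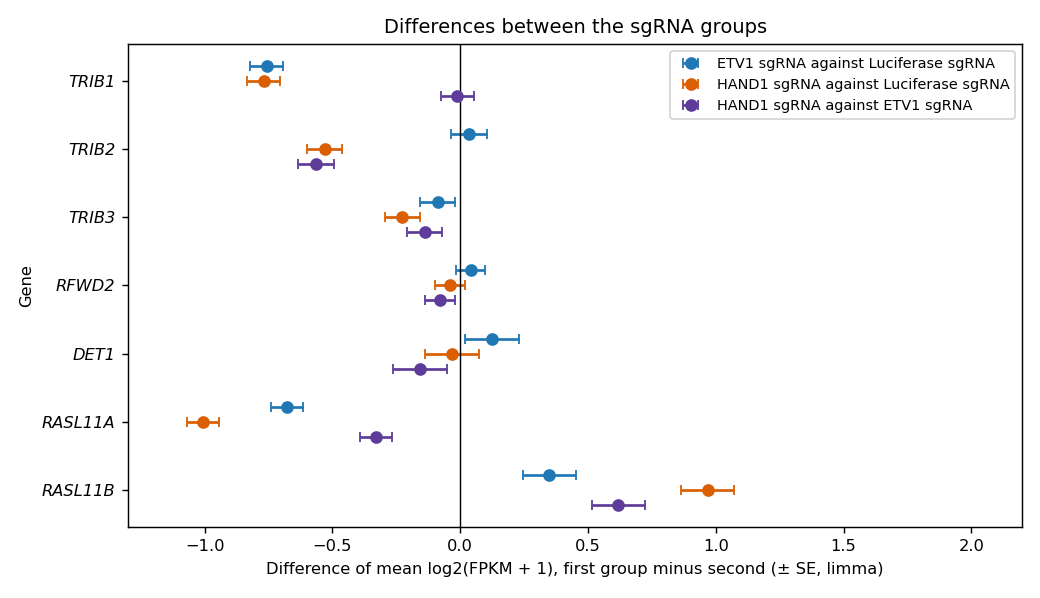
Difference of mean log2(FPKM + 1) (x axis, with SE from limma) for each gene (y axis) in the 3 comparisons, first group minus second. TRIB1 lay at −0.76 and −0.77 against the control and at −0.01 between the targeting sgRNAs, TRIB2 at 0.03 and −0.53, and RASL11A and RASL11B lay on opposite sides of 0.

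RFWD2, the ligase subunit that recognises substrates and Tribbles tails, was at 28.9, 28.5 and 32.0 FPKM in the controls. It was at 32.0, 30.0 and 30.0 FPKM with ETV1 sgRNA and at 28.5, 29.1 and 29.2 FPKM with HAND1 sgRNA. The ranges of each targeted group overlapped the controls. The difference from the control was −0.04 with HAND1 sgRNA (SE 0.058, 95% interval −0.17 to 0.09, adjusted p = 0.767) and 0.04 with ETV1 sgRNA (SE 0.058). HAND1 sgRNA lay 0.08 below ETV1 sgRNA (difference −0.08, SE 0.058), with no overlap of the 3 values. The 95% interval against the control thus reaches 0.09 upwards and −0.17 downwards on this scale.

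DET1, which joins COP1 to DDB1, was near the lower end of the genes tested. It was at 2.08, 1.96 and 1.82 FPKM in the controls, at 2.23, 2.50 and 1.95 FPKM with ETV1 sgRNA and at 1.97, 2.01 and 1.70 FPKM with HAND1 sgRNA, and all 3 ranges overlapped. The difference was −0.03 with HAND1 sgRNA (SE 0.107, 95% interval −0.27 to 0.20, adjusted p = 0.903) and 0.12 with ETV1 sgRNA (SE 0.107). At this level the scale understates fold changes, and the interval is wider than that of RFWD2. DET1, RFWD2 and TRIB2 overlap non-coding genes in the RefSeq annotation (a long non-coding RNA for DET1, a microRNA and a small Cajal body RNA for RFWD2, and a microRNA for TRIB2), and the unstranded libraries cannot separate these.

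The partners of RFWD2 and DET1 were looked at as a list of 20 genes that held DDB1, the cullins, the E2 enzymes that DET1 binds and the COP9 signalosome, which removes NEDD8 from cullins. All 20 were tested. This list and the lists below were chosen with earlier results of these data known. Their p-values are therefore not independent of that choice. With HAND1 sgRNA 1 was called lower and 0 higher, against 2.93% and 3.67% of all genes. The list's median was −0.05 against −0.01 over all genes tested. The called gene was UBE2E1, an E2 enzyme, at 41.7 ± 2.10 FPKM against 50.0 ± 3.74 FPKM (SD, n = 3; log2 −0.25, adjusted p = 0.0493 in limma). Its call held under 3 of 19 alternatives. It was lost without Luciferase sgRNA replicate 1 or 3 (adjusted p = 0.103 and 0.0997 in limma). Leaving out ETV1 sgRNA replicate 1, 2 or 3 also lost it (0.0722, 0.0719 and 0.0579). So did leaving out HAND1 sgRNA replicate 1, 2 or 3 (0.0975, 0.0854 and 0.179). With all libraries the call was lost with a pseudocount of 0.1, no filter, no trend, library weights and median centring (0.0501 to 0.0793). Quantile scaling (0.0590), only the 2 groups compared (0.0946) and the replicate block (0.0906) lost it as well. DDB1, the adaptor itself, was at 104 ± 4.13 FPKM against 114 ± 2.90 FPKM (log2 −0.13, adjusted p = 0.170) and was not called. With ETV1 sgRNA limma called 0 of the 20, against 0.203% of all genes (0.141% higher, 0.0617% lower). In this list 1 had an unadjusted p under 0.05, against 930 of all 11348 genes. The list's median was −0.02 against −0.0076 over all genes. UBE2E3 (log2 0.24, adjusted p = 0.374) and COPS5 (−0.15, adjusted p = 0.679) had the smallest p in that comparison. Between HAND1 sgRNA and ETV1 sgRNA limma called 0 of 20, against 4.05% of all genes. Here 3 had an unadjusted p under 0.05, against 1744 of all 11348 genes.

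Among 19 genes whose proteins COP1 or Tribbles proteins bind or degrade, 16 were tested. With HAND1 sgRNA 2 were called lower and 1 higher, against 2.93% and 3.67% of all genes. The list's median was 0.0036 against −0.01 over all genes tested. ETV5 was at 91.0 ± 3.87 FPKM against 113 ± 4.25 FPKM in the controls (SD, n = 3) and fell by 0.30 on the log2 scale (limma adjusted p = 0.00540). ETV4 was at 27.7 ± 0.598 against 33.5 ± 0.470 FPKM and fell by 0.27 (adjusted p = 0.00659). JUN was at 14.3 ± 0.188 against 10.9 ± 0.776 FPKM and rose by 0.36 (adjusted p = 0.00980). These 3 calls held under all 19 alternatives. ETV4 overlaps DHX8 and ETV5 overlaps its antisense gene in the RefSeq annotation, so the values of both are uncertain in unstranded libraries. CEBPA, the gene of C/EBP alpha, was at 2.69 ± 0.240 FPKM with HAND1 sgRNA and 3.62 ± 0.769 FPKM in the controls (−0.31, adjusted p = 0.223), and AKT1 at 139 ± 1.89 and 134 ± 5.78 FPKM (0.06, adjusted p = 0.552). With ETV1 sgRNA, where 0.203% of all genes were called, the called genes of this list were ETV1 itself and JUN. JUN was at 15.6 ± 0.826 FPKM (0.48, limma adjusted p = 0.0209). The call of JUN held under 11 of 19 alternatives. It was lost without ETV1 sgRNA replicate 1 or 3, Luciferase sgRNA replicate 1 or 2 or any 1 HAND1 sgRNA library (limma adjusted p up to 0.135). It was also lost with only the 2 groups compared (limma adjusted p = 0.121). Between HAND1 sgRNA and ETV1 sgRNA, where 4.05% of all genes were called (2.01% higher, 2.04% lower), 1 of the 16 was higher (ETV1) and 2 were lower, ETV5 (−0.26, adjusted p = 0.0170) and ETV4 (−0.21, adjusted p = 0.0306). The call of ETV5 held under 13 of 19 alternatives. It was lost without any 1 ETV1 sgRNA library, without HAND1 sgRNA replicate 2 or 3 and with quantile scaling (adjusted p up to 0.0711). The call of ETV4 held under 7 of 19. It was lost without any 1 ETV1 or HAND1 sgRNA library or Luciferase sgRNA replicate 2 (adjusted p up to 0.133), with median centring (0.0809), quantile scaling (0.0683), the replicate block (0.0624), no trend (0.0581) and only the 2 groups (0.0501).

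Stress genes that ATF4 and CHOP induce together with TRIB3 were tested for 11 of 12 genes, TRIB3 left out. With HAND1 sgRNA 1 was called lower and 0 higher, against 2.93% and 3.67% of all genes. The median was −0.14 against −0.01 over all genes tested. ASNS, asparagine synthetase, was at 55.5 ± 1.12 FPKM against 68.5 ± 2.23 FPKM (SD, n = 3) and fell by 0.30 on the log2 scale (limma adjusted p = 0.00681). The call held under all 19 alternatives. ASNS overlaps a long non-coding RNA and 2 pseudogenes in the RefSeq annotation, so its values are uncertain. PSAT1, of serine synthesis, was at 68.8 ± 2.90 against 81.3 ± 6.52 FPKM (−0.23, adjusted p = 0.0930), DDIT3, the gene of CHOP, at 15.7 ± 1.31 against 21.0 ± 5.56 FPKM (−0.37, adjusted p = 0.182) and ATF4 at 182 ± 4.02 against 192 ± 7.21 FPKM (−0.08, adjusted p = 0.448). With ETV1 sgRNA limma called 0 of 11, against 0.203% of all genes, and the median was −0.10. Of the 11, 2 had an unadjusted p under 0.05 (ASNS at −0.17 and DDIT3 at −0.34), against 930 of all 11348 genes. Between HAND1 sgRNA and ETV1 sgRNA limma called 0 of 11, against 4.05% of all genes. Here 2 had an unadjusted p under 0.05, against 1744 of all 11348 genes.

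RASL11A and RASL11B differed from the control by similar amounts in opposite directions with HAND1 sgRNA. RASL11A was at 201, 213 and 218 FPKM in the controls, at 135, 125 and 135 FPKM with ETV1 sgRNA and at 97.5, 111 and 105 FPKM with HAND1 sgRNA. The 3 groups did not overlap: all controls were high, the ETV1 sgRNA libraries lay between, and the HAND1 sgRNA libraries were lowest. RASL11A fell by 1.01 (log2, SE 0.062, adjusted p = 1.14e-05) with HAND1 sgRNA, to 0.496 of the control mean. The difference was −0.68 (SE 0.062) with ETV1 sgRNA, and −0.33 (SE 0.062) between HAND1 sgRNA and ETV1 sgRNA. Even at its lowest group mean, 105 ± 6.69 FPKM, RASL11A lay above 92.9% of the genes tested.

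RASL11B went the other way. It was at 12.2, 13.5 and 16.2 FPKM in the controls, at 18.5, 16.5 and 18.7 FPKM with ETV1 sgRNA and at 25.2, 29.6 and 29.6 FPKM with HAND1 sgRNA. Again the groups did not overlap, but the gap between the highest control (replicate 3) and the lowest ETV1 sgRNA library was small. RASL11B rose by 0.97 (log2, SE 0.103, adjusted p = 3.45e-04) with HAND1 sgRNA, a ratio of 2.02 to the control mean. The difference was 0.35 (SE 0.103) with ETV1 sgRNA and 0.62 (SE 0.103) between HAND1 sgRNA and ETV1 sgRNA. Without Luciferase sgRNA replicate 3 the rise of RASL11B with HAND1 sgRNA was 1.07 (that library left out, RASL11A was at −0.98) and the difference with ETV1 sgRNA 0.45.

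The ratio of RASL11A to RASL11B was 15.3 ± 1.59 in the controls (SD, n = 3), 7.34 ± 0.198 with ETV1 sgRNA and 3.72 ± 0.159 with HAND1 sgRNA. It lay between 13.5 and 16.5, between 7.18 and 7.56 and between 3.56 and 3.87 in the same order, with no overlap. The ratio was not tested. RASL11A stayed the more abundant of the pair in all 9 libraries, and the sum of both fell from 225 ± 10.7 FPKM to 149 ± 6.74 and 133 ± 9.07 FPKM, which follows RASL11A.

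**Figure D3:**
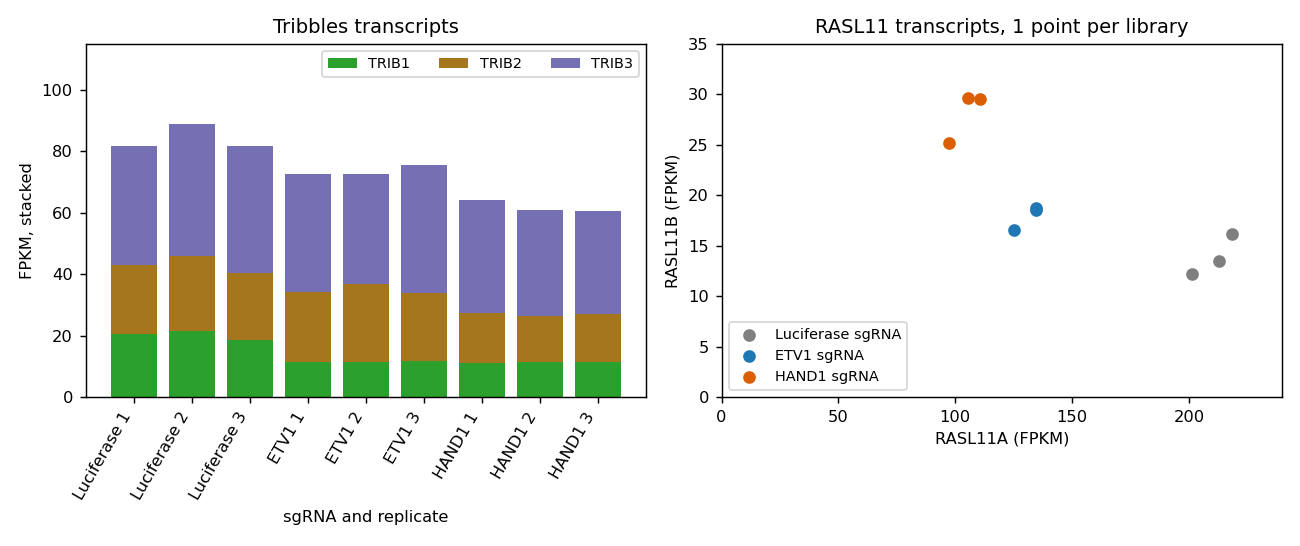
Left, FPKM of TRIB1, TRIB2 and TRIB3 stacked (y axis) in each library (x axis); right, RASL11B against RASL11A, both in FPKM, with 1 point per library. The stacked Tribbles level was between 81.8 and 89.0 FPKM in the controls and between 60.6 and 64.3 FPKM with HAND1 sgRNA, and the 3 groups of points in the right panel did not overlap on either axis.

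Since RASL11A and TRIB2 fell and RASL11B rose with HAND1 sgRNA, their promoters are shown, with that of TRIB3 as a member that was not called. The windows run from 250 bases before to 50 after an annotated start, from RefSeq, build GRCh38.p14, which is not the hg19 build of the expression files. Windows matched by symbol were used for 6 of the 7 genes (TRIB2, TRIB3, RFWD2 as COP1, DET1, RASL11A and RASL11B). No window of TRIB1 was used, so its promoter was not searched. Capitals mark GGAA, the core letters of ETS factor sites, or its reverse complement TTCC. The windows lie at chr13:27270580-27270879 (plus strand) for RASL11A, chr4:52862067-52862366 (plus strand) for RASL11B, chr2:12716686-12716985 (plus strand) for TRIB2 and chr20:381045-381344 (plus strand), the first of 3 annotated starts, for TRIB3.
RASL11A: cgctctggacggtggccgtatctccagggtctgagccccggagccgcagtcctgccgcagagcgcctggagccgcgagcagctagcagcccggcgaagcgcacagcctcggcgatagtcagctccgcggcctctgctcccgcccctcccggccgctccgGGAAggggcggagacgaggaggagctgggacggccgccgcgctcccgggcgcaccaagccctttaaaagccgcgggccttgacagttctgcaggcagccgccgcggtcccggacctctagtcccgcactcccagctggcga
RASL11B: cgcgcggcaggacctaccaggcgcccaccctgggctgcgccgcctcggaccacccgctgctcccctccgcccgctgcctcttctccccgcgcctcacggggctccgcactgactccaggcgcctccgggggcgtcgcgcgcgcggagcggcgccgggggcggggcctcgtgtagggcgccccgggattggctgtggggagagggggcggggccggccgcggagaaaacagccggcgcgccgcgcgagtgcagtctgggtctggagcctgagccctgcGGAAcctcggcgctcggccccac
TRIB2: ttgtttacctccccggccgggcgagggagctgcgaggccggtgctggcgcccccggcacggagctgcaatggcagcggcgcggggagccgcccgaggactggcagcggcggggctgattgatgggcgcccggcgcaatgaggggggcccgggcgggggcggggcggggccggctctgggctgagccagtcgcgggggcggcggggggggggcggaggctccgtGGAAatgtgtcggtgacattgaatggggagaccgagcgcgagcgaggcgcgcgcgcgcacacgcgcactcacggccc
TRIB3: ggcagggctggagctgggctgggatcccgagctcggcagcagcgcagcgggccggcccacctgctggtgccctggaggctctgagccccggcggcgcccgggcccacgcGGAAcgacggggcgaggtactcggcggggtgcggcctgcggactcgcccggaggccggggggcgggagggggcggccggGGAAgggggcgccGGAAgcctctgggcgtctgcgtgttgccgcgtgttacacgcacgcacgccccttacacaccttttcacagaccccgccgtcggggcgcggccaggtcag

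RASL11A, RASL11B and TRIB2 each held GGAA or TTCC at 1 place in these windows, and TRIB3 at 3. Those letters are common: 95.5% of all 35116 windows of the same length held them, with a median of 3 matches, and this search was chosen after the expression values were seen. The longer ETS letters CCGGAAG, searched on both strands, were found in all 3 windows of TRIB3 and in none of RASL11A, RASL11B, TRIB2, RFWD2 or DET1, against 10.3% of all windows. The windows of TRIB3 overlap and share this 1 match. These letters contain GGAA, so the match in TRIB3 is also one of its GGAA places. None of these 6 genes held the AP-1 letters TGAGTCA (4.95% of all windows), the CRE letters TGACGTCA (1.85%), the E-box CAGATG (14.7%) or the CEBP-ATF letters TGATGNAA (3.62%) in these windows, both strands searched. The windows shown are rich in G and C, at 73.0% for RASL11A, 79.0% for RASL11B, 77.3% for TRIB2 and 77.0% for TRIB3, against a median of 58.7% over all windows. A match of letters is a description of the sequence, and binding was not measured here.

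Other small GTPases of the RAS family were tested for 21 of 32 listed genes, RASL11A and RASL11B left out. With HAND1 sgRNA 1 was called lower and 0 higher, against 2.93% and 3.67% of all genes. The median was −0.04 against −0.01 over all genes tested. The called gene was NKIRAS1, a RAS-like inhibitor of NF-kB signalling, at 15.3 ± 1.23 FPKM against 22.6 ± 1.04 FPKM (SD, n = 3). It fell by 0.54 on the log2 scale (limma adjusted p = 0.00106), a call that held under all 19 alternatives. NKIRAS1 and UBE2E1, the E2 enzyme above, overlap in the RefSeq annotation, and NKIRAS1 also overlaps RPL15, so in unstranded libraries these values are uncertain. With ETV1 sgRNA limma called 0 of 21, against 0.203% of all genes. Of the 21, 3 had an unadjusted p under 0.05, against 930 of all 11348 genes. RHEBL1 (log2 −0.68, adjusted p = 0.369) and DIRAS1 (−0.30, adjusted p = 0.381) had the smallest p. Between HAND1 sgRNA and ETV1 sgRNA NKIRAS1 was lower (−0.54, adjusted p = 0.00139) and was the called 1 of 21. Over all genes 4.05% were called in that comparison (2.01% higher, 2.04% lower). Leaving out Luciferase sgRNA replicate 3 added RALA, a RAL GTPase (0.21, adjusted p = 0.0429).

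The RNA polymerase I machinery, to which RASL11A is linked through UBTF, had 20 of 21 genes tested. With HAND1 sgRNA limma called 0 of them, against 6.6% of all genes. An unadjusted p under 0.05 was seen for 2 of the 20, against 2302 of all 11348 genes. These were CD3EAP (−0.26, limma adjusted p = 0.0645) and POLR2H (−0.26, adjusted p = 0.115). The median was −0.04 against −0.01 over all genes tested. Leaving out Luciferase sgRNA replicate 2 gave a call for CD3EAP (−0.32, adjusted p = 0.0420), and leaving out replicate 1 of that group a call for POLR2H (−0.34, adjusted p = 0.0493), as did a fit with library weights (−0.24, adjusted p = 0.0426). With ETV1 sgRNA 0 were called, against 0.203% of all genes, and the median was −0.0074. An unadjusted p under 0.05 was seen for 0, against 930 of all 11348 genes. Between HAND1 sgRNA and ETV1 sgRNA limma called 0, against 4.05% of all genes. Against 1744 of all 11348 genes with an unadjusted p under 0.05, the list held 1 such gene. That gene, POLR2K, was called without HAND1 sgRNA replicate 2 (−0.39, adjusted p = 0.0439). UBTF itself was at 40.4 ± 2.30 FPKM with HAND1 sgRNA and 40.4 ± 0.792 FPKM in the controls (log2 −4.4e-04, adjusted p = 0.996).

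**Figure D4:**
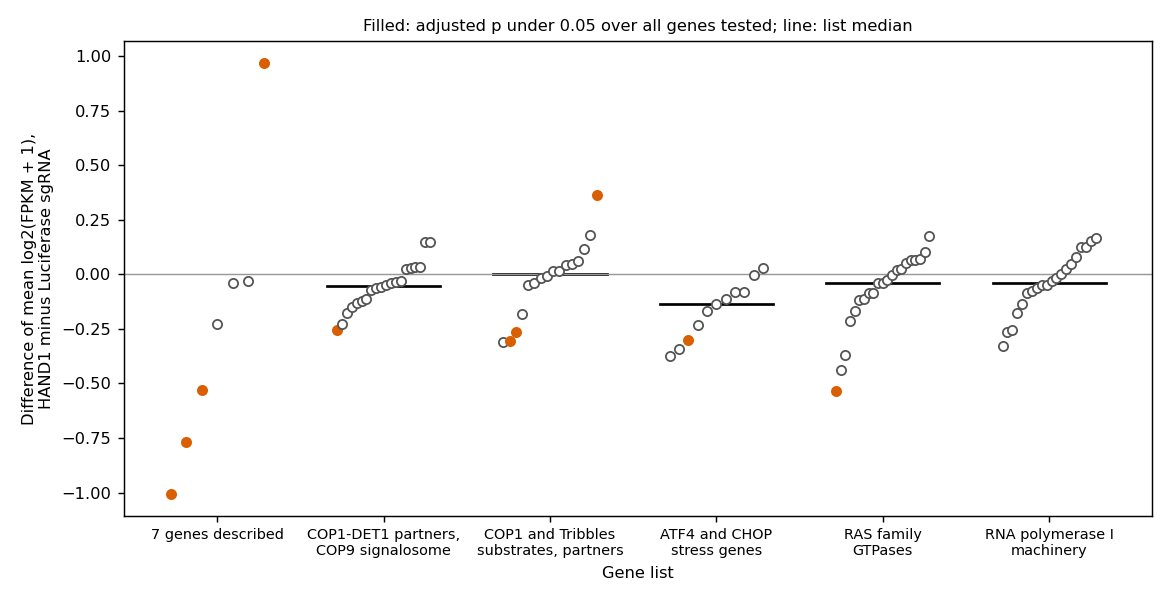
Difference of mean log2(FPKM + 1) between HAND1 sgRNA and Luciferase sgRNA (y axis) for the 7 genes and for the tested genes of each list (x axis), ordered by value within a list. Filled points had an adjusted p under 0.05 over all genes tested and lines are list medians; RASL11A at −1.01 and RASL11B at 0.97 are the extremes of the plot.

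Genes with the profile most like each of the 7 were taken as the 3 with the highest Pearson correlation of log2(FPKM + 1) over the 9 libraries. The libraries fall into the 3 sgRNA groups, so for a member whose groups lie apart the values mostly describe shared group levels. RFWD2 and DET1 overlapped the controls in both targeted groups, so their values also reflect the spread between libraries within a group. Picking the highest r among 11348 genes over 9 libraries gives high values even between unrelated genes. How far this holds for each match was not tested. Several of the most similar genes overlap another annotated gene (among them MYCN, SPRY4, ALDH1A3, NKIRAS1, LINC00847 and MTHFS), and their values are uncertain in unstranded libraries. For TRIB1 they were RAPGEF5, an exchange factor of RAP GTPases (r = 0.95), SCARB1, the HDL receptor (0.94), and DLGAP5, a spindle protein (0.93). For RASL11A they were MYCN (0.99), the gene of N-MYC, PTGS2 (0.98), also known as COX-2, and SPRY4 (0.97), a Sprouty gene that dampens RAS-ERK signalling. MYCN had means of 134, 97.2 and 77.5 FPKM with Luciferase, ETV1 and HAND1 sgRNA. RASL11B was most like ARL6IP1 (0.99), GPR153 (0.98) and ALDH1A3, a retinoic acid synthesis enzyme (0.98). ALDH1A3 had means of 9.68, 11.3 and 16.2 FPKM in the same order. Rank correlations (Spearman) with TRIB1 were lower than its r values, at 0.77 for RAPGEF5, 0.82 for SCARB1 and 0.58 for DLGAP5. For the matches of the other members they ran from 0.85 to 0.98.

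TRIB2 was most like NKIRAS1 (0.99), NPR3, the natriuretic peptide clearance receptor (0.98), and CSNK1A1, casein kinase 1 alpha (0.98). NPR3 was at means of 150, 155 and 109 FPKM in the same order of groups. TRIB3 was most like LOXL2 (0.96), a lysyl oxidase, KIF13B (0.95), a kinesin, and LINC00847 (0.95). The best matches of RFWD2 were TRAPPC5 (0.94), MTHFS (0.93) and ETFB (0.92), and those of DET1 were PDCD6IP (0.94), KIAA0247 (0.93) and QARS (0.92). TRAPPC5, a vesicle tethering subunit, was at means of 52.0, 56.8 and 45.8 FPKM and PDCD6IP, an ESCRT-associated protein gene, at 29.1, 31.3 and 28.4 FPKM. Among the 7 genes themselves, r was 0.93 for TRIB1 with RASL11A, −0.89 for TRIB2 with RASL11B and −0.85 for RASL11A with RASL11B. It was 0.16 for RFWD2 with DET1, over the same 9 libraries. These include the ETV1 sgRNA libraries, in which the lower TRIB1 and RASL11A were in view when the genes were chosen. The choice thus enters these r values, above all that of TRIB1 with RASL11A, and they were not tested.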

How the data were processed

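The authors deposited FPKM values for each gene symbol in each library. Per the submitters' processing notes, STAR, Cufflinks and the hg19 build were used, with no versions stated. Annotation, filters and scaling between libraries: not given in the sources used here. Per the labels' protocols, RNA came from an RNeasy Plus kit and libraries from an unstranded NEBNext Ultra II kit. No counts are given, so no count model was used and depth is relative only, from the most frequent ratio of values between 0.001 and 0.1 FPKM.

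Values below 1e-06 were read as 0. The 11348 genes whose mean reached 1 FPKM were analysed as log2(FPKM + 1), pseudocount 1, in limma 3.58.1 (R 4.3.3), with no term but group, all libraries, intensity trend, two-sided, Benjamini-Hochberg adjustment over all genes tested. The script was tested on simulated data. Fold changes on this scale understate low genes. The 7 genes and the lists were chosen with earlier results of these data known. Named are the 7 genes, ETV1 and HAND1, markers, up to 4 called genes per list and comparison (or up to 2 where none was called) and the 3 genes most like each of the 7; DDB1, CEBPA, AKT1, PSAT1, ATF4, UBTF, RALA and POLR2K were added after their values were seen. Transcript lengths are from GENCODE 29; promoters and overlaps are from RefSeq tables of GRCh38.p14. The 19 alternatives were 2 pseudocounts (0.1 and 5), 2 filters (none, and a mean of 5 FPKM), centring on the median of genes that reach 10 FPKM, quantile scaling, a fit with no trend, weights per library, a fit of just the 2 groups compared, the replicate number as a block, and leaving out each of 9 libraries. Protein sequences were not used here.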

Additional observations from a re-analysis of the deposited data

How the results depend on the processing

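The calls of TRIB1, TRIB2, RASL11A and RASL11B with HAND1 sgRNA kept their direction and their side of the threshold under all 19 alternatives: TRIB1 lay between −0.83 and −0.62, TRIB2 between −0.58 and −0.44, RASL11A between −1.05 and −0.93 and RASL11B between 0.81 and 1.07 (log2), with adjusted p of at most 0.00877 in limma. TRIB3 passed with library weights (−0.26, adjusted p = 0.0210 in limma; 0.0210 to 0.248 over all alternatives). With HAND1 sgRNA against the control, the sign of 2 values that were not called turned: RFWD2 was at 0.0032 with library weights and 0.012 without Luciferase sgRNA replicate 3 (−0.069 to 0.012 when 1 library was left out), and DET1 at 0.017 without HAND1 sgRNA replicate 3 (−0.064 to 0.017). Among the untested differences, TRIB2 with ETV1 sgRNA against the control turned to −0.017 with library weights and −0.021 without ETV1 sgRNA replicate 2, and TRIB1 between the targeting sgRNAs to 0.0085 with median centring and 0.0045 without HAND1 sgRNA replicate 1. DET1 gave no value under a minimum of 5 FPKM. Against the control, TRIB1 with ETV1 sgRNA was at −0.61 with a pseudocount of 5, and TRIB2 between the targeting sgRNAs at −0.47.

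Over all genes, limma called 23 with ETV1 sgRNA, 749 with HAND1 sgRNA and 460 between them. Library weights gave 45 and 1312 for the first 2, and only the 2 groups compared gave 14 for ETV1 sgRNA; the cause was not tested. Leaving out 1 library gave 11 to 26, 433 to 730 and 271 to 583. The replicate numbers did not pair the libraries: correlations of same-numbered deviations ran from −0.15 to 0.14, and 0 of 9 libraries correlated best with their own number in both other groups. With the replicate number as a block the counts were 16, 632 and 364, and the same 4 of the 7 genes were called with HAND1 sgRNA. The unknown absolute depth limits DET1 most, as the lowest of the 7.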
